A study of Homo sapiens with 4 samples.

Results

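ZFHX3 and MYC were followed through the m6A peak lists of RWPE1 cells, an immortalized human prostate epithelial line, with and without knockdown of the RNA demethylase FTO. A stable line expressing an shRNA against FTO from a lentivirus (shFTO) was set against a line infected with the vector (shCtrl), and the FTO-depleted line was selected with puromycin. An m6A immunoprecipitation (IP) library and its input were sequenced once per condition, which makes 4 libraries, so no difference between the conditions has a replicate check and none was tested. The values are the authors' own peaks, 10087 for shCtrl cells and 10323 for shFTO cells, each with a position in hg19, a strand, a name and a score. A peak belonged to a gene when it lay on the strand of the gene and overlapped its locus, which runs from 72816 to 73093 kb on the minus strand of chromosome 16 for ZFHX3 (Entrez Gene 463) and from 128748 to 128754 kb on the plus strand of chromosome 8 for MYC (Entrez Gene 4609). Of the 20410 peaks in both lists, 1 met this rule. It lay in ZFHX3 and was listed in shFTO cells, and neither list used here held a peak in MYC.

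ZFHX3, also known as ATBF1, is a transcription factor with many zinc fingers and several homeodomains, and it is often mutated or deleted in prostate cancer. Parts of its coding sequence lie in unusually long exons. MYC is a transcription factor that drives cell growth and proliferation, and its mRNA is known for a short life. In mRNA, m6A is written by a methyltransferase complex around METTL3 and METTL14, erased by FTO and ALKBH5, and read by proteins that change the stability, splicing or translation of the transcript. MeRIP-seq maps the mark by comparing RNA fragments pulled down with an antibody against m6A with the input RNA, so a peak is a stretch of enrichment and not a single modified base. In this study, the ZFHX3 peaks address whether m6A on the ZFHX3 transcript changes when FTO is lost. MYC was followed as a gene that the authors place downstream of both ZFHX3 and FTO.

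The ZFHX3 peak of shFTO cells lay on the minus strand of chromosome 16 from 72827156 to 72832613, and it was 5458 bp wide. The shCtrl list held 0 peaks on ZFHX3, so the peak had no partner, which is a peak of the other list that overlaps by at least 1 bp on either strand. Because ZFHX3 is transcribed from the minus strand, the lower coordinate is the 3′ end of the locus. The peak started 11.2 kb inside this 3′ end and ended 260 kb short of the 5′ end. It covered 1.97% of the 277 kb of the locus, and the remainder held no listed peak in either condition. The gene spans 1109 kb in RefSeq for GRCh38, so this share and the distance to the 5′ end depend on the locus ends used. On the opposite strand of the locus, the number of listed peaks was 0 in both lists. An exon, intron or UTR was not assigned to the peak, since no gene models of hg19 were used here, and its bases are not printed for the same reason.

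The ZFHX3 peak was among the strongest and widest of the shFTO list. Its score was 3100, a value shared exactly by 611 shFTO peaks, with 28 peaks above it. Its rank was therefore anywhere from 29 to 639 of 10323, within the highest 6.19% of the list. Scores in the shFTO list began at 50.05 and had a median of 220. The scale of the score is not given in the sources used here, so it served only for ranks within a list. By width, the peak was ranked 21 of 10323, 22.6 times the median width of 242 bp. The next wider peak measured 5462 bp and the next narrower 5432 bp. On chromosome 16, 3 of the 477 listed shFTO peaks were wider.

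**Figure D1:**
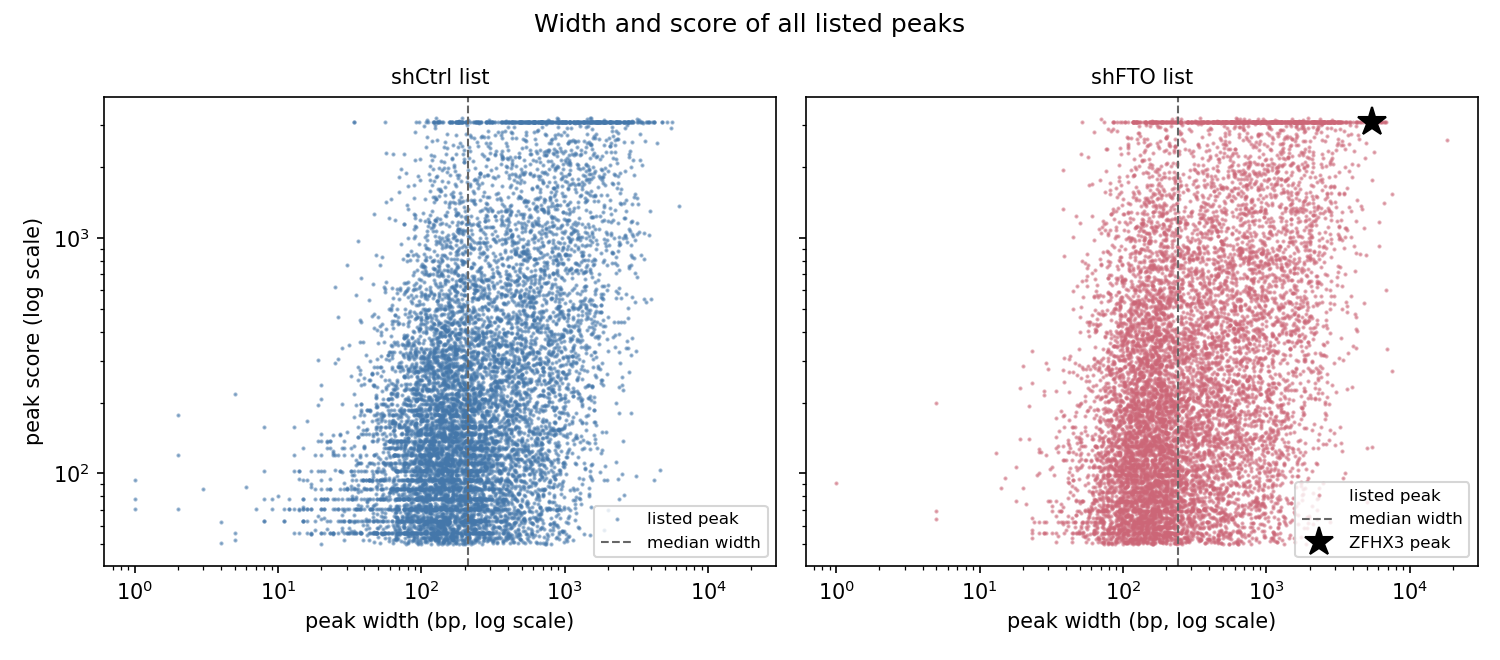
Each point is 1 listed peak, with its width in bp on the horizontal log axis and its score on the vertical log axis, for the shCtrl list (left) and the shFTO list (right). The dashed lines mark the median widths of 212 and 242 bp, and the star marks the ZFHX3 peak, which sits in the band of peaks at a score of 3100, close to its wide end.

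Peaks as wide as that of ZFHX3 were few and most were in the shFTO list, with 21 there and 3 in the shCtrl list. The whole shFTO list also had wider peaks, with a mean width of 535 bp and a covered length of 5526716 bp against 409 bp and 4121647 bp in the shCtrl list. Of the 21 shFTO peaks, 10 had the same score of 3100. No partner was found for 14 of the 21 (66.7%, with a 95% Wilson interval for counting error alone of 45.4% to 82.8%), and for 471 of the 611 peaks with the score of 3100 (77.1%, 73.6% to 80.2%). Over the whole shFTO list, 80.4% of peaks had no partner, and over the shCtrl list 79.8%. The lack of a partner at ZFHX3 was thus shared with most peaks of the list, those of the same width and of the same score included. Where wide shFTO peaks did have partners, in 7 cases, the widest shCtrl partner measured from 932 to 6212 bp with a median of 2854 bp. Because these shFTO peaks were chosen for their width, narrower partners follow largely from the choice. Peaks with a score of 3100 and no partner, to which the ZFHX3 peak belongs, had a median width of 857 bp in shFTO cells, and 7 of the 471 were wider than it.

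The ZFHX3 peak also stood alone along the chromosome. The nearest listed shCtrl peak lay 670 kb below it and the next 1651 kb above it. In the shFTO list itself the neighbours were 664 kb below and 1649 kb above. Among all 8304 shFTO peaks without a partner, the median distance to the nearest shCtrl peak was 18.2 kb, and 155 (1.87%) were as far away as the ZFHX3 peak or farther. Among the other 13 wide shFTO peaks without a partner, the farthest was 82.0 kb from a shCtrl peak. The stretch without a listed peak was thus common to both lists, and its borders were close to each other. It ran from 72157548 to 74483753 in shCtrl cells, while in shFTO cells the neighbours of the ZFHX3 peak ended at 72163132 and began at 74481557.

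**Figure D2:**
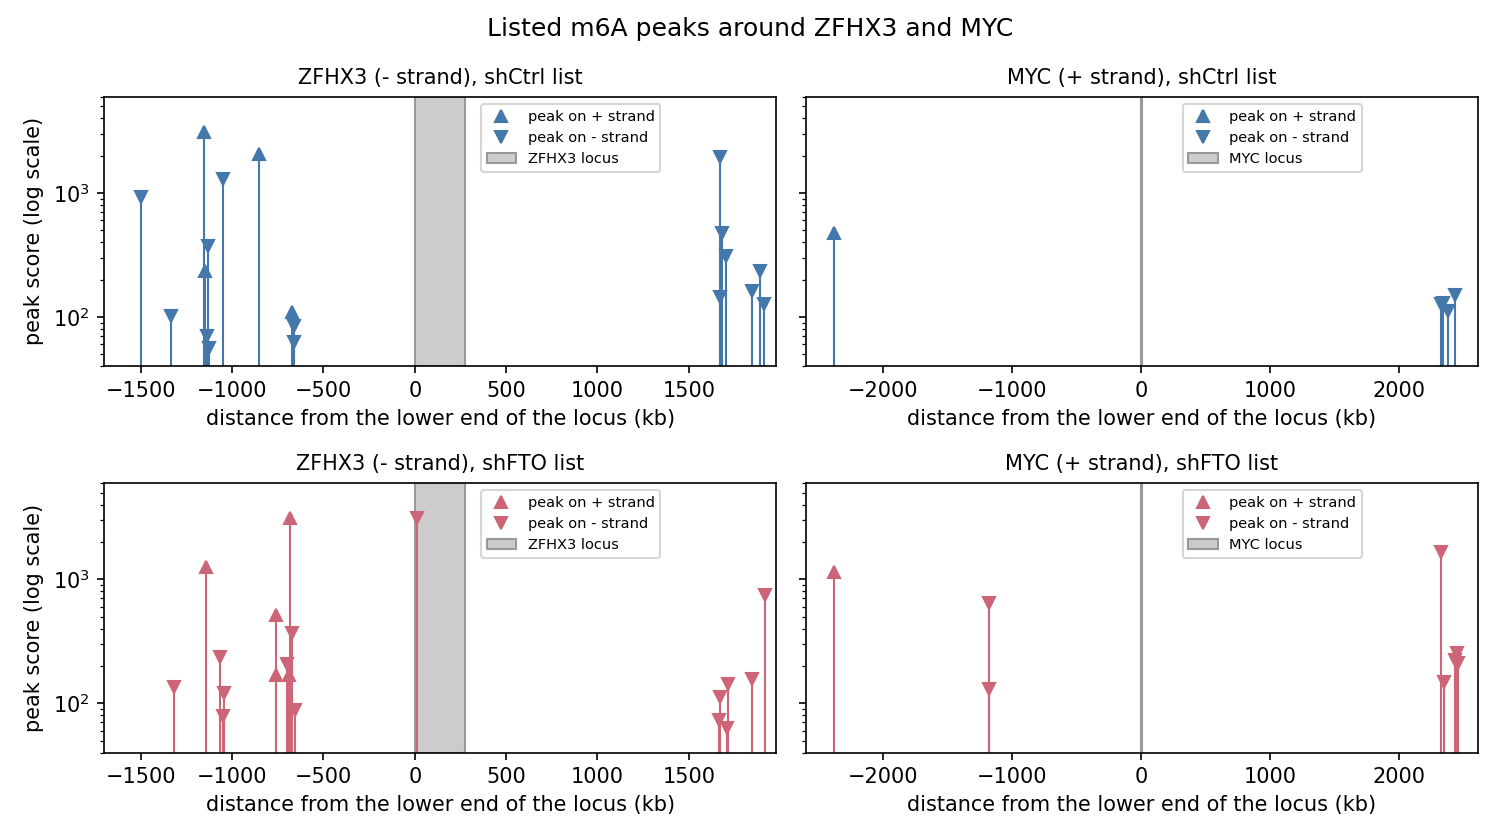
Listed peaks around the ZFHX3 locus (left) and the MYC locus (right) in the shCtrl list (top) and the shFTO list (bottom), with the distance from the lower end of the locus in kb on the horizontal axis and the peak score on the vertical log axis. Upward triangles are plus-strand and downward triangles minus-strand peaks, and grey bands mark the loci, drawn to scale with a thin edge. The ZFHX3 peak at a score of 3100 is the 1 peak that lies in a band.

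The names of the peaks give how many peaks were numbered between listed neighbours, though not where between them these peaks lay. Names are of the form that MACS writes and end in a number. No number occurred more than once in a list, and along every chromosome the numbers never fell with position, over 10063 pairs of neighbouring shCtrl peaks and 10299 pairs of shFTO peaks. The highest numbers were 173974 and 161598, so the lists held 5.80% and 6.39% of the peaks numbered up to there. The numbers skipped between neighbours in a list therefore give the peaks that were numbered between them and are not in the list used here. Their positions, strands and scores are unknown. Both lists are labelled mRNA, and whether the skipped peaks lay outside mRNA was not tested.

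In the long stretch between the listed neighbours of ZFHX3, about as many peaks were numbered in control as in knockdown cells. This stretch is far longer than the locus and takes in both strands, so the counts are not counts on ZFHX3. Between the listed shCtrl peaks on both sides of the locus, numbered 64101 and 64246, there were 144 skipped numbers over 2.33 Mb. Between the corresponding shFTO peaks, numbered 59546 and 59692, there were 145 numbers over 2.32 Mb, of which 1, number 59624, was the ZFHX3 peak and 144 were skipped. Of the skipped shFTO numbers, 77 lay below the ZFHX3 peak and 67 above it. These counts correspond to 61.9 numbered peaks per Mb in shCtrl cells and 62.5 per Mb in shFTO cells, against 59.0 and 54.8 per Mb over the whole lists. The ZFHX3 stretch was thus not poor in numbered peaks against the whole lists, although it held fewer per Mb than the wider region around it, given below. Whether any of the 144 shCtrl peaks lay on ZFHX3 could not be read from the list, and a peak there that was numbered and left out has the same appearance as no peak.

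The same holds for nearly every peak without a partner. Of the 8265 such shFTO peaks with a listed shCtrl peak on both sides, only 8 (0.0968%, 95% Wilson interval 0.0491% to 0.191%) lay where the shCtrl numbers ran on without a skip. This follows largely from the listing, which held 5.80% of the numbered shCtrl peaks. It is therefore not read as a trait of peaks without a partner. The median number skipped was 24, and 88 peaks, that of ZFHX3 included, had 144 or more. Among the 14 wide shFTO peaks without a partner the skipped shCtrl numbers ranged from 4 to 144, with a median of 22 and the highest value at ZFHX3.

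To set both conditions against each other over the same stretch, the nearest peaks with the same start, end and strand in both lists were taken on either side of each locus, from 1114 such identical peaks. For ZFHX3 these were a plus-strand peak from 69279505 to 69279718 and a minus-strand peak from 75276368 to 75276988, 5.997 Mb apart. Between them 714 peaks were numbered in shCtrl cells and 680 in shFTO cells, a ratio of 1.05 of control to knockdown. The ratio of the highest numbers of the whole lists was 1.08. Of these peaks, 45 (6.30%) were listed in shCtrl cells and 39 (5.74%) in shFTO cells. The density was 119 numbered peaks per Mb in shCtrl cells and 113 per Mb in shFTO cells. In the inner stretch between the listed neighbours of ZFHX3 it was lower, at 61.9 and 62.5 per Mb. These counts and densities take in both strands and many other genes, so they say nothing of ZFHX3 itself, and with 1 library pair per condition the ratio has no error.

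MYC had no listed peak to compare. The lists used here may not hold every row of the authors' lists, so a count of 0 refers only to the rows analysed here. The number of peaks on its plus-strand locus was 0 in shCtrl cells and 0 in shFTO cells, and it was also 0 on the minus strand. The lists did hold peaks elsewhere on chromosome 8, with 270 in shCtrl and 309 in shFTO cells, of which 126 and 154 were on the plus strand. A stretch of 6 kb taken without regard to genes was rarely met by a listed peak. When the plus strand of chromosome 8 was divided into 24353 windows of this length, genes or not, 0.521% held a shCtrl peak and 0.624% a shFTO peak. For ZFHX3, 93 of 326 windows of 277 kb on the minus strand of chromosome 16 (28.5%) held a shCtrl peak and 98 (30.1%) a shFTO peak. Since the windows ignore genes, these shares are not a background for a transcribed gene.

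The region around MYC was without listed peaks over a longer stretch than that around ZFHX3. In the shCtrl list the neighbours of MYC lay 2378 kb below and 2316 kb above the locus, and in the shFTO list 1177 kb below and 2319 kb above. In between, 322 numbers were skipped over 4.70 Mb in shCtrl cells and 245 over 3.50 Mb in shFTO cells. Such long runs were rare, since the median was 9 skipped numbers between neighbouring shCtrl peaks and 8 between neighbouring shFTO peaks. Only 2 of 10063 shCtrl pairs and 1 of 10299 shFTO pairs, those around MYC included, skipped as many. By distance the stretch was less rare, since 63 shCtrl pairs (0.626%) and 123 shFTO pairs (1.19%) lay as far apart or farther. The run of 144 at ZFHX3 was equalled or exceeded by 26 shCtrl pairs, its own included.

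Peaks were nevertheless numbered around MYC. Their density was 68.5 per Mb in shCtrl and 70.0 per Mb in shFTO cells over the stretches given above, which are not the same in both lists, against 59.0 and 54.8 per Mb over the whole lists. Over the same 4.81 Mb between identical peaks, which end 2378 kb below and begin 2426 kb above MYC, 352 peaks were numbered in shCtrl cells and 299 in shFTO cells, a ratio of 1.18. Of these, 3 (0.852%) were listed in shCtrl cells and 4 (1.34%) in shFTO cells, below the listed shares around ZFHX3 and over the whole lists. Why so few were listed there was not tested. An m6A peak on MYC in either condition can thus be neither given nor denied from the lists.

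**Figure D3:**
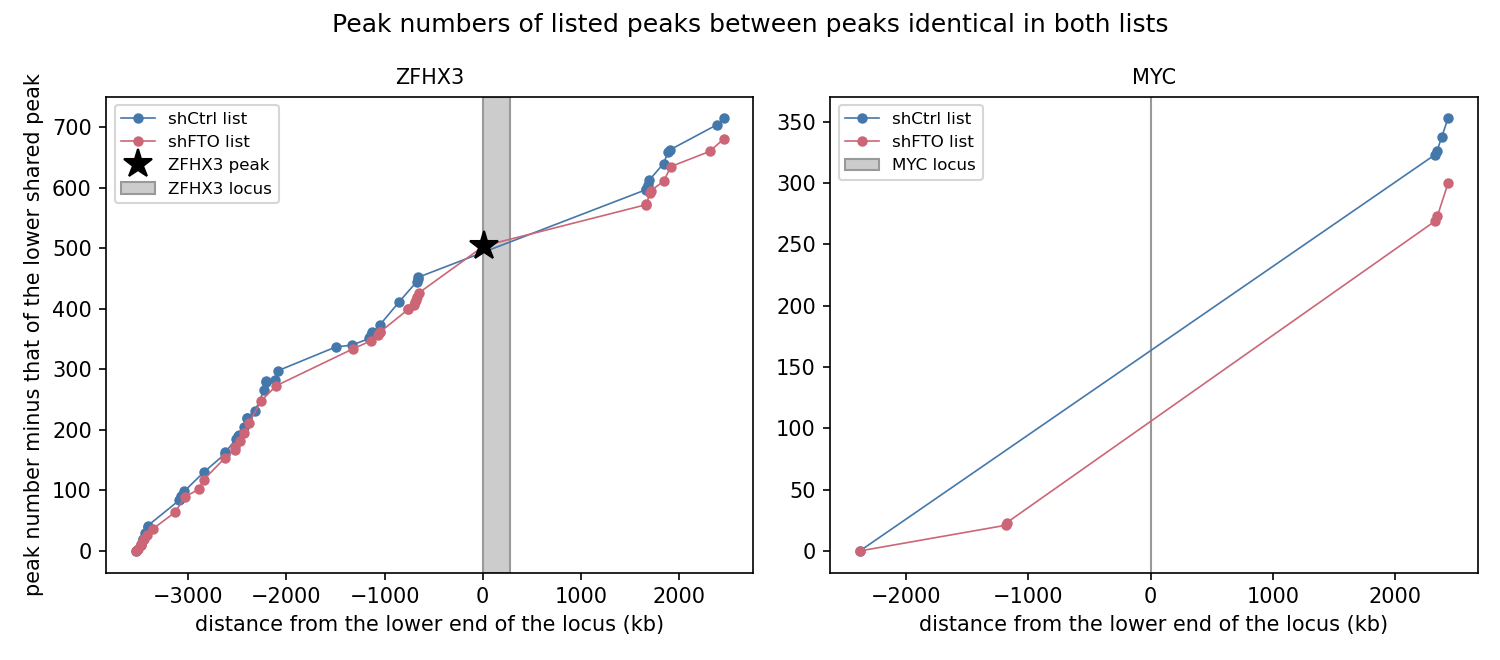
Peak numbers of the listed peaks between the nearest peaks identical in both lists around ZFHX3 (left) and MYC (right), counted from the number of the lower identical peak, against the distance from the lower end of the locus in kb. Each point is 1 listed peak of the shCtrl (blue) or shFTO list (red), and lines join neighbours in a list. Around ZFHX3 both lines climb together to 715 and 681 at the upper identical peak, with the ZFHX3 peak (star) close to the control line, and around MYC they climb to 353 and 300 with few points on the way.

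The lists do not hold transcript levels. A peak is seen only where enough RNA was read, so more ZFHX3 RNA and more m6A on each ZFHX3 molecule in shFTO cells cannot be told apart from the peak alone. For the same reason neither the knockdown of FTO nor the epithelial type of the RWPE1 cells was checked in these lists.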

How the data were processed

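MeRIP-seq was performed on RWPE1 cells with shCtrl or shFTO, with 1 IP and 1 input library each, and the directional libraries were sequenced as paired-end reads. The submitters' processing notes name cutadapt 1.9.3, HISAT2 and hg19. Both lists are labelled mRNA. Beyond this label, the rule by which peaks were listed is not given in the sources used here, and neither are the caller's settings. The deposited values are 2 peak lists, 1 per condition, in which the authors scored every peak on a scale that is not stated. No read counts were used, so the depth is unknown.

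Loci were those stated in kb in the opening of the report. ZFHX3 and MYC were chosen with earlier results of these data known, and all their peaks are named. Partners were found in Python 3.11.15 with pandas 2.3.3 and NumPy 2.4.6, and Wilson intervals came from SciPy 1.17.1. The partner search was run on simulated lists whose shared peaks were identical, so partial overlaps and the alternative partner rules were not checked there. Peak numbers were taken from the peak names. Figures were drawn with matplotlib 3.10.9. Positions are 1-based. For each gene, 10 alternatives were planned, and 3 were added after seeing the data. The gene table of GRCh38 was used only for gene IDs and the length of ZFHX3, since its build differs.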

Additional observations from a re-analysis of the deposited data

How the results depend on the processing

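All 108 values recomputed under the alternatives kept the reported count or length, or stayed within 1.5 times of it. Most of these outcomes were fixed in advance and are no check of the results. The nearest shCtrl peak lay 670 kb from the ZFHX3 peak, whose score of 3100 passed every cut, and no filter can raise a count of 0. Only both strands, the wider loci and the other flanking peaks could have changed a value. ZFHX3 kept 1 shFTO peak of 5458 bp without a partner and 0 shCtrl peaks, and MYC kept 0 peaks in both lists, when partners had to share 50% of the shorter peak or of both peaks, with partners within 100 bp or on the same strand, peaks at or above the median score set against each other or against the whole other list, the 5000 highest-scoring peaks, merged peaks, both strands, and locus ends moved outward by 5 kb. Among the alternatives chosen after seeing the data, moving the 5′ end of ZFHX3 outward by 1000 kb, since the gene spans 1109 kb in RefSeq for GRCh38, changed neither count, and 1000 kb on both sides of MYC still gave 0 peaks. With flanking peaks that overlap on the same strand in place of identical ones, 596 shCtrl and 572 shFTO peaks were numbered around ZFHX3, a ratio of 1.04, and the MYC counts were as reported. With a rank tied over 611 peaks, the 5000 highest-scoring peaks included the ZFHX3 peak in any order of the ties.

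No paired analysis was possible because the libraries carry no replicate numbers, with 1 IP and 1 input per condition, and none was left out. The unknown depth limits what a peak in 1 list alone shows.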
